A study of Sus scrofa with 21 samples.

Results

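The comparison described here is the change in sperm hyperactivity over 96 h of storage in Landrace boars. Its members were the Landrace libraries whose labels place the boar in the high or the low group for the change from day 0 to 96 h, which gave 3 boars with a high change (L7, L13 and L15) and 4 with a low change (L2, L9, L10 and L12), 7 of the 21 libraries in all. The labels put L2 also in the low group and L7 also in the high group of hyperactivity at day 0. All 7 were purebred Landrace boars in routine use for artificial insemination, whose testis tissue was frozen after slaughter, with 1 library of poly(A)-selected, strand-specific RNA per boar. Their ages are not given in the labels, which also name no treatment or genotype. The study did report variants whose genotype frequencies differed between its high and low change groups. Ejaculates of poor motility or shape had been discarded before storage. Hyperactivity was measured in the semen and RNA in the testis, so each value below belongs to the tissue that made the sperm and none to a stored sperm cell.

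Hyperactivation is the vigorous, whip-like beating that a mammalian sperm cell takes up as part of capacitation, and a cell that takes it up before it reaches the oviduct spends energy that it needs later. A sperm cell makes almost no new RNA, so its flagellum, acrosome, glycolytic enzymes and condensed nucleus are built from transcripts made in the testis, first in spermatocytes in meiosis and then in round spermatids, and stored for translation while the spermatid elongates. Around these germ cells stand Sertoli cells, which nurse them, and outside the tubule peritubular muscle-like cells, Leydig cells, which make androgen, fibroblasts, vessels and macrophages. In RNA from whole tissue, fewer cells of a type and less RNA per cell cannot be told apart.

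Depth, as total counts over genes, was 47988011 to 77217140 in the low boars and from 57638778 to 91641957 in the high boars. Defining markers of testis cells were present in all 7 libraries, among them SYCP3 of the meiotic chromosome axis (341 to 477 CPM, read counts relative to a library size scaled by the trimmed mean of M-values), the transition protein TNP1 (3385 to 7166 CPM), SOX9 of Sertoli cells (33 to 73.4 CPM) and CYP17A1 of Leydig cells (384 to 1654 CPM). L13 stood apart from the other boars. Its log2 CPM had a median Pearson's r of 0.945 with the other 6, where each of those had a median of 0.976 to 0.980. It also had the largest share of reads on mitochondrial genes, 4.02%, against 2% in L7, 2.44% in L15 and 1.1% to 1.97% in the low boars. The main results are therefore given with and without L13.

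Across 12824 tested genes, those that reached 1 CPM in 4 or more libraries, 0 genes reached an adjusted p under 0.05 by the quasi-likelihood method of edgeR after Benjamini-Hochberg adjustment (0%, smallest adjusted p = 0.24). At an unadjusted p under 0.05 there were 2540 genes, of which 1218 were higher in the high boars (9.5% of those tested) and 1322 lower (10.3%). The CPM of the groups did not overlap in 941 genes that were higher (7.34%) and 1144 that were lower (8.92%). The likelihood ratio test, which the authors used, passed 61 genes higher (0.476%) and 31 lower (0.242%), and DESeq2 passed 77 higher (0.68%) and 46 lower (0.406%) of the 11328 genes to which it gave an adjusted p. limma-voom passed 0, with 2566 genes at an unadjusted p under 0.05. Below, higher and lower describe levels in the high change boars, an unadjusted p is from the quasi-likelihood test in edgeR, and no statement rests on an adjusted p under 0.05 in that test.

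Leaving out L13 lowered the number of such genes more than leaving out any other boar. Of the 1218 genes that were higher at an unadjusted p under 0.05, 1218 kept their direction and 407 kept that p without L13, and of the 1322 lower genes, 1322 kept their direction and 523 kept that p. Without L13 there were 462 genes higher (3.6%) and 568 lower (4.43%), together 8.03% of those tested. Of the 61 higher genes passed by the likelihood ratio test, 59 had an unadjusted p under 0.05 in the same direction without L13, as had 31 of its 31 lower genes.

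The 12 named genes with the smallest p included 9 that were higher and 3 that were lower in the high boars, and in each of the 12 the groups did not overlap, which is a description, since the genes were chosen on this difference. Each also had an adjusted p of 0.24 in edgeR's test. Positions given here and below are those of the whole gene in the RefSeq annotation of Sscrofa11.1. WNT5A (chr13:37344684-37367215), a secreted ligand that shapes tissues mainly through non-canonical WNT signalling, had 6.92, 4.4, 3.62 and 4.56 CPM in L2, L9, L10 and L12 and 12.4, 11.4 and 18.2 CPM in L7, L13 and L15, a log2 fold change of 1.52 (SE 0.27). The high boars lay well above every low boar, and the low boar L2 was the nearest to them. ADGRG6 (chr1:22662009-22802166), an adhesion receptor coupled to G proteins that binds collagen IV and laminin, had 7.65, 8.24, 7.32 and 7.99 CPM in L2, L9, L10 and L12 and 14.3, 19 and 15.1 CPM in L7, L13 and L15, a log2 fold change of 1.05 (SE 0.18), with little spread inside either group. PTPRK (chr1:34693363-35258699), a receptor tyrosine phosphatase of cell contacts, had 11.4, 10.3, 12.5 and 12.9 CPM in L2, L9, L10 and L12 and 18.9, 28.6 and 24.4 CPM in L7, L13 and L15. Its log2 fold change was 1.03 (SE 0.19). The iron exporter SLC40A1, ferroportin, had 17.2, 11.3, 7.41 and 10.4 CPM in L2, L9, L10 and L12 and 49.7, 23.4 and 36.9 CPM in L7, L13 and L15, with L7 the highest and L13 the lowest of the high boars.

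Others in this group of 12 act in lysosomes, membranes and mast cells. ARSK (chr2:102164089-102210293), a lysosomal sulfatase, had 6.63, 5.14, 6 and 6.92 CPM in L2, L9, L10 and L12 and 12.2, 12.2 and 14.8 CPM in L7, L13 and L15, and the log2 fold change was 1.08 (SE 0.20). EMB (chr16:30121072-30170495), embigin, which escorts lactate transporters to the plasma membrane, had 7.58, 8.6, 9.32 and 6.26 CPM in L2, L9, L10 and L12 and 13, 27 and 21.3 CPM in L7, L13 and L15. GRIA3 (chrX:100827293-101109213), a glutamate receptor subunit on the X chromosome, had 10.2, 6.21, 7.93 and 8.86 CPM in L2, L9, L10 and L12 and 13.8, 31 and 21.9 CPM in L7, L13 and L15, reaching its highest level in L13. DIPK2A, a protein kinase-like protein of the Golgi, had 21.6, 22.1, 11.6 and 15.1 CPM in L2, L9, L10 and L12 and 77.6, 36.2 and 42.3 CPM in L7, L13 and L15. The highest boar for DIPK2A was L7. MS4A2 (chr2:11400415-11420314), the beta chain of the high-affinity IgE receptor and a defining marker of mast cells, had 1.17, 0.715, 0.686 and 0.908 CPM in L2, L9, L10 and L12 and 1.85, 4.98 and 2.82 CPM in L7, L13 and L15, from 36 reads in L10 to 419 in L13. The 3 genes that were lower were DNLZ, which keeps the mitochondrial HSP70 soluble, the transmembrane protein gene TMEM225B and the ubiquitin protease USP31. DNLZ was at 0.717 to 0.974 CPM in the high and 2.58 to 4.44 CPM in the low boars. TMEM225B was at 10.7 to 13.1 CPM in the high and 21.3 to 29.4 CPM in the low boars and USP31 at 19.9999 to 21.6 CPM in the high and 31.6 to 39.6 CPM in the low boars. Several of these 12, among them DNLZ, SLC40A1, WNT5A and MS4A2, are also genes that the study picked on these same libraries. The study's text describes DNLZ as up-regulated and CADPS as down-regulated in the high group, opposite to the directions found here. The mean DNLZ counts that the study prints are nevertheless lower in the high group, as here.

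**Figure D1:**
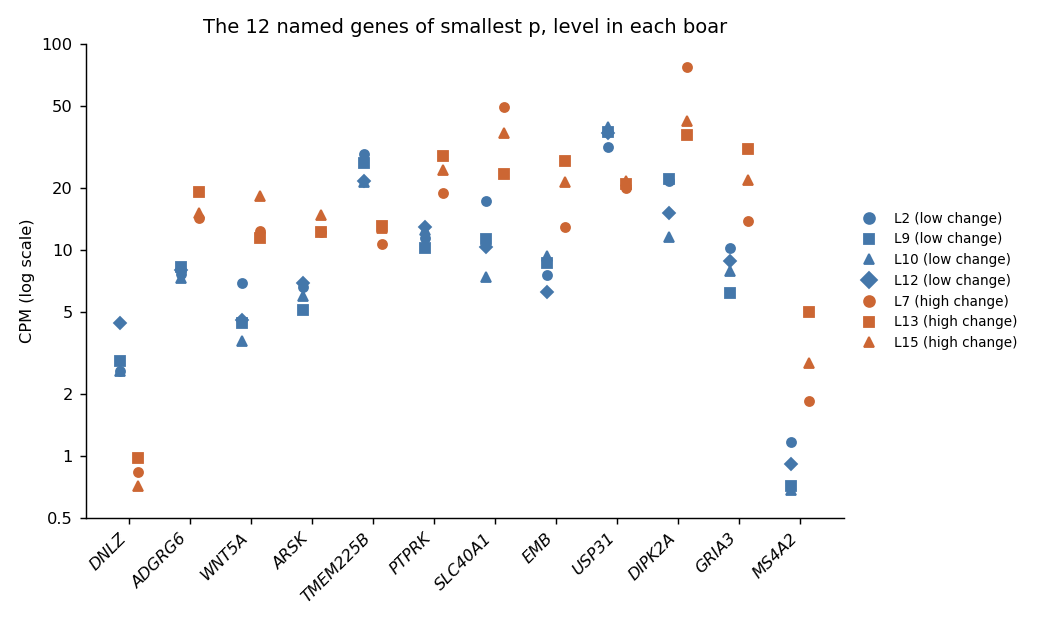
Level of the 12 named genes of smallest p in each boar, in CPM on a log axis, with low change boars in blue and high change boars in orange and 1 marker shape per boar. In every gene the 3 orange markers lie on 1 side of the 4 blue ones, below them for DNLZ, TMEM225B and USP31 and above them for the other 9.

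The genes with the largest log2 fold changes among those with an unadjusted p under 0.05 and no overlap were CADPS, MS4A2, ZNF37A, RAB27A, P3H2 and SLC40A1 at the high end and DNLZ, ADCY2, PROM2, ADA, CD164L2 and SAYSD1 at the low end. CADPS was at 2.15 to 4.11 CPM in the high and 0.102 to 1.3 CPM in the low boars, the latter from 8 to 68 reads. Its log2 fold change of 2.08 (SE 0.63) thus rests on few reads in the low boars. RAB27A, a small GTPase that docks secretory vesicles and lysosome-related organelles, was at 2.01 to 6.95 CPM in the high and 0.747 to 1.62 CPM in the low boars, and its log2 fold change of 1.74 was 0.89 without L13. Its close relative RAB27B was at 15.1 to 29.2 CPM in the high and 6.19 to 10.7 CPM in the low boars, with 1.31 (SE 0.26) and 1.02 without L13. The collagen-modifying enzyme P3H2 was at 12.7 to 37.2 CPM in the high and 5.14 to 8.65 CPM in the low boars, and here L7 was the highest. ADCY2, an adenylyl cyclase of the membrane, had 19.8, 17.8, 15.5 and 10.3 CPM in L2, L9, L10 and L12 and 7.28, 0.938 and 4.79 CPM in L7, L13 and L15, a log2 fold change of -1.87 (SE 0.54), with L13 the lowest. PROM2, a protein of membrane protrusions, was at 0.582 to 1.45 CPM in the high and 2.01 to 5.87 CPM in the low boars. ADA, adenosine deaminase, was at 0.344 to 1.08 CPM in the high and 1.64 to 4.24 CPM in the low boars. ADA2, the secreted adenosine deaminase, was at 1.48 to 2.05 CPM in the high and 3.33 to 5.11 CPM in the low boars, so for neither deaminase did a high boar reach the level of any low boar.

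Among germ cell lists, the later stages had the lower medians. For spermatogonia the median log2 fold change over 13 tested markers was -0.01, for meiotic prophase spermatocytes -0.01 over 27, and for late spermatocytes -0.01 over 10, where the median over all 12824 genes was 0.00. For round spermatids it was -0.17 over 16 markers, and for elongating and condensing spermatids -0.51 over 20. Without L13 these last medians were -0.05 and -0.28. At an unadjusted p under 0.05, 5 round and 11 elongating spermatid markers were lower and 0 of either list were higher, beside 10.3% lower and 9.5% higher over all genes. Without L13, 8 of the elongating spermatid markers and 4 of the round spermatid markers were lower at that p, where 4.43% of all genes were.

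Boar by boar, the mean log2 CPM of the elongating spermatid list, taken relative to the mean of the low boars, was -0.22 in L7, -1.18 in L13 and -0.48 in L15, against -0.08 to 0.11 in the low boars. The groups did not overlap, and L13 lay farthest from the low boars. The same measure for meiotic prophase was 0.05 in L7, -0.08 in L13 and 0.03 in L15, against -0.08 to 0.13 in the low boars, so there the groups overlapped.

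**Figure D2:**
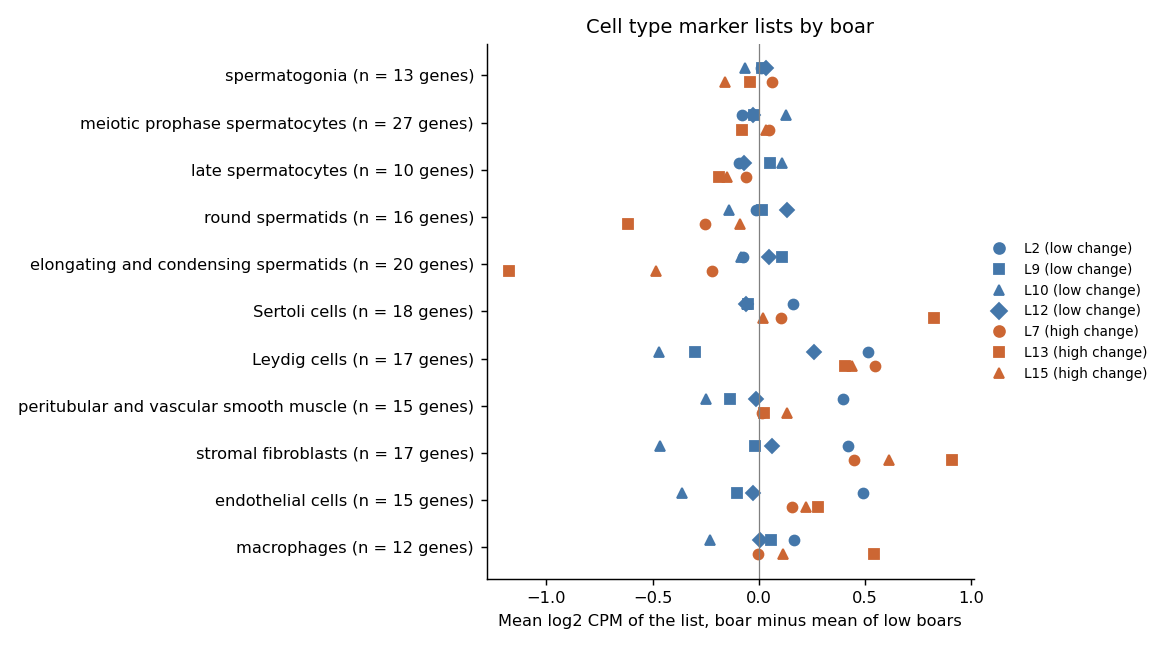
Mean log2 CPM of each cell type marker list in each boar, relative to the mean of the 4 low change boars (blue, high change boars in orange). The orange markers lie below all blue ones for elongating and condensing spermatid markers at -1.18 to -0.22, above all blue ones for stromal fibroblast markers at 0.45 to 0.91, and on both sides of the blue ones for spermatogonia.

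Among the spermatid markers, PRM1 (chr3:31861087-31861529), the protamine that packs sperm DNA, had 1441, 2124, 1486 and 1939 CPM in L2, L9, L10 and L12 and 1344, 468 and 725 CPM in L7, L13 and L15. Its log2 fold change was -1.05 (SE 0.31, unadjusted p = 0.00654), and -0.75 without L13. TNP1, the transition protein that comes before it, had 5149, 7166, 5983 and 4511 CPM in L2, L9, L10 and L12 and 6225, 3427 and 3385 CPM in L7, L13 and L15, and the groups overlapped, with a log2 fold change of -0.39 (SE 0.24, unadjusted p = 0.129). SPATA3 was at 9.23 to 20.4 CPM in the high and 26.4 to 46.6 CPM in the low boars. The spermatid kinase TSSK6 was at 2 to 5.53 CPM in the high and 7.34 to 16.6 CPM in the low boars, also without overlap. ODF1, of the outer dense fibres, was at 918 to 1815 CPM in the high and 1808 to 2199 CPM in the low boars, with an overlap through L7. Among round spermatid markers, the lysozyme-like LYZL4 was at 46.8 to 66.5 CPM in the high and 78.5 to 102 CPM in the low boars. ACTRT2, an actin-related protein, was at 17.2 to 46.7 CPM in the high and 56.4 to 115.8 CPM in the low boars, and L13 was the lowest boar for both. Gametogenetin, GGN, was at 16.9 to 18.6 CPM in the high and 20.6 to 27.9 CPM in the low boars. The acrosome genes ACRV1 and SPACA1, the defining markers of round spermatids that were tested, had log2 fold changes of 0.17 (SE 0.12) and 0.12 (SE 0.13), in the opposite direction to LYZL4, ACTRT2 and GGN, so members of this list lay on both sides of 0. PRM1 is among the genes that the study called on these libraries, so its place in the list is no independent evidence. Summed over all 20 elongating spermatid markers, the level was 9545 to 17599.9 CPM in the high and 16441 to 21374 CPM in the low boars. Markers of cells outside the tubule, described below, were higher in value in the same boars, and their part in these levels was not tested.

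Earlier germ cell markers lay close to the low boars or on either side of them. In meiosis, SYCP3 was at 384 to 449 CPM in the high and 341 to 477 CPM in the low boars, a log2 fold change of 0.02 (SE 0.14). SYCP1 of the synaptonemal complex had a log2 fold change of -0.11 (SE 0.15) and the recombinase DMC1 one of -0.09 (SE 0.20). The groups thus overlapped for all 3 defining markers of meiotic prophase. MSH4, which stabilises crossover sites, was at 25.5 to 47.4 CPM in the high and 19.7 to 21.1 CPM in the low boars, higher without overlap, and L13 was far above the other boars. REC114, needed for meiotic DNA breaks, was lower, at 6.28 to 7.54 CPM in the high and 7.64 to 11.2 CPM in the low boars, with a gap of the groups smaller than the range of the low boars. STAG3, a meiotic cohesin, overlapped at 294 to 617 CPM in the high and 581 to 694 CPM in the low boars. In late spermatocytes, CDC20, which activates the anaphase-promoting complex, had 78.1, 64.8, 63.9 and 86 CPM in L2, L9, L10 and L12 and 46.6, 24.8 and 47.7 CPM in L7, L13 and L15, a log2 fold change of -0.88 (SE 0.23, unadjusted p = 0.00326). PLK1, a kinase of division, was at 42.1 to 79.2 CPM in the high and 83.1 to 102 CPM in the low boars. For both CDC20 and PLK1 every high boar lay below every low boar, with L13 the lowest. LDHC, the lactate dehydrogenase of germ cells, overlapped at 656 to 694 CPM in the high and 612 to 769.8 CPM in the low boars. KIT, the receptor of differentiating spermatogonia, had 63.5, 84.2, 25 and 69.2 CPM in L2, L9, L10 and L12 and 33.2, 38.2 and 33.5 CPM in L7, L13 and L15, with the low boar L10 below all high boars.

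Genes of the sperm tail were mostly lower in value. Of 59 tested genes of the axoneme, the microtubule engine of the flagellum, 57 had a log2 fold change below 0. At an unadjusted p under 0.05, 16 were lower and 0 higher (beside 10.3% and 9.5% of all genes), and 13 were lower without overlap (beside 8.92%). The median was -0.34, and -0.18 without L13. Without L13, 7 of the 59 were lower and 0 higher, where 4.43% and 3.6% of all genes were. DRC3, of the dynein regulatory complex, was at 2.65 to 5.53 CPM in the high and 5.89 to 15.1 CPM in the low boars, a log2 fold change of -1.29 (SE 0.38, unadjusted p = 0.00662). The radial spoke gene RSPH3 was at 17.6 to 28.4 CPM in the high and 33.2 to 47.5 CPM in the low boars. RSPH6A, a spoke gene of the sperm flagellum, was at 6.43 to 12 CPM in the high and 14.2 to 44 CPM in the low boars. For these 3 genes no high boar reached a low boar. Relative to the low boars, the mean over the axoneme genes was -0.29 in L7, -0.84 in L13 and -0.13 in L15, against -0.12 to 0.10 in the low boars, so all high boars lay below all low boars, with L15 nearest to the low boar L2.

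Of 20 genes of outer dense fibres, fibrous sheath and tektins, 6 were lower at that p and 0 higher, with a median of -0.28 (-0.12 without L13). Without L13 there were 0 higher and 4 lower. The abundant ODF2, a scaffold of the dense fibres, had 2641, 2617, 2472 and 2655 CPM in L2, L9, L10 and L12 and 2052, 888 and 1729 CPM in L7, L13 and L15. Its low boars lay close together, and L13 was far below the rest. CCDC42, needed for the head to tail connection, was at 7.81 to 11.6 CPM in the high and 14.1 to 21.9 CPM in the low boars. SPATC1 was at 2.73 to 6.72 CPM in the high and 8.57 to 15.8 CPM in the low boars. For the acrosome, zona binding and fusion list, 6 of 27 genes were lower and 0 higher (median -0.18, and -0.04 without L13), beside 10.3% and 9.5% of all genes. Without L13 the list had 0 higher and 2 lower, beside 3.6% higher and 4.43% lower over all genes. DKKL1, an acrosomal glycoprotein, was at 146 to 246 CPM in the high and 275 to 302 CPM in the low boars. The proacrosin-binding ACRBP was at 186 to 319 CPM in the high and 346 to 525 CPM in the low boars. IZUMO4, of the IZUMO family of sperm membrane proteins, was at 127 to 242 CPM in the high and 253 to 297 CPM in the low boars, and the groups did not overlap in any of the 3. Among 17 ubiquitin and protein turnover genes of spermatids, 5 were lower and 1 higher. Without L13 there were 0 higher and 3 lower. The ubiquilin UBQLNL had 564, 501, 576 and 575 CPM in L2, L9, L10 and L12 and 363, 107 and 369.7 CPM in L7, L13 and L15. The antizyme OAZ3, a regulator of polyamines in spermatids, was at 588 to 1266 CPM in the high and 1433 to 1656 CPM in the low boars.

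Energy genes were mixed in value. In the sperm glycolysis list 6 of 20 genes were lower and 2 higher (median -0.33, -0.21 without L13). Over all genes 10.3% were lower and 9.5% higher, and 15 of the 20 had a log2 fold change below 0. Without L13 the list had 1 higher and 3 lower. GAPDHS, the glyceraldehyde phosphate dehydrogenase bound to the fibrous sheath, had 215, 183, 149.7 and 228 CPM in L2, L9, L10 and L12 and 130.2, 61.9 and 139 CPM in L7, L13 and L15. ENO1, enolase 1, was at 36.1 to 62.5 CPM in the high and 64.3 to 121 CPM in the low boars, and neither gene overlapped. The 2 genes that were higher were EMB, given above, and PGAM1, a phosphoglycerate mutase, which overlapped and was named after its values were seen. The 57 nuclear-encoded subunits of the respiratory chain and ATP synthase had a median of 0.01, with 6 higher and 6 lower. Those shares are near the 9.5% and 10.3% over all genes, and without L13 there were 2 higher and 0 lower. SDHC of complex II was at 66.4 to 109 CPM in the high and 51.4 to 70.03 CPM in the low boars. COX7B of complex IV was at 23.2 to 47.3 CPM in the high and 17.2 to 21 CPM in the low boars. SDHC overlapped through L2 and COX7B did not. CYCS, cytochrome c, had a log2 fold change of 0.57 (SE 0.21). In the citric acid cycle and carnitine shuttle list 5 of 29 were higher and 3 lower, and without L13 there were 2 higher and 1 lower. SUCLG2, a subunit of succinyl-CoA ligase, had a log2 fold change of 0.69 (SE 0.23). Carnitine acetyltransferase, CRAT (chr1:269387430-269401334), which buffers acetyl units in mitochondria, had 76.9, 89.8, 96.7 and 80.7 CPM in L2, L9, L10 and L12 and 55, 30.6 and 54.1 CPM in L7, L13 and L15, a log2 fold change of -0.89 (SE 0.21, unadjusted p = 0.00159). By contrast, the peroxisomal octanoyltransferase CROT was higher, at 18.7 to 24.8 CPM in the high and 9.95 to 16.6 CPM in the low boars.

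The messenger RNAs encoded by the mitochondrial genome were higher in value. All 13 had a log2 fold change above 0, from 0.46 to 0.96 with a median of 0.80 (0.61 without L13). Of these, 12 had an unadjusted p under 0.05, 8 did not overlap, and 6 passed the likelihood ratio test. The shares of all genes that were higher by these measures were 9.5%, 7.34% and 0.476%. Without L13, 9 of the 13 had that p, where 3.6% of all genes were higher. The 13 are transcribed together from 1 circular genome, so they are not separate observations, and the study called several of them on these libraries. CYTB of complex III had 1365, 877, 1061 and 1322 CPM in L2, L9, L10 and L12 and 1666, 2915 and 1878 CPM in L7, L13 and L15, a log2 fold change of 0.90 (SE 0.22, unadjusted p = 0.00178). ND3 of complex I was at 229 to 399 CPM in the high and 119 to 184 CPM in the low boars. ND1, of the same complex, was at 719 to 982 CPM in the high and 299.9 to 634 CPM in the low boars. In all 3 genes L13 was the highest boar and the low boar nearest to the high boars was L2. As a share of all counts, mitochondrial genes took 2% to 4.02% in the high boars, a mean of 2.82% ± 1.06 (SD, n = 3), and 1.1% to 1.97% in the low boars, a mean of 1.58% ± 0.397 (SD, n = 4), and an exact permutation over boars, two-sided, gave p = 0.0286, the smallest possible. L7 at 2% and the low boar L2 at 1.97% lay next to each other. The part of the cell makeup of each piece of tissue in these values was not tested.

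**Figure D3:**
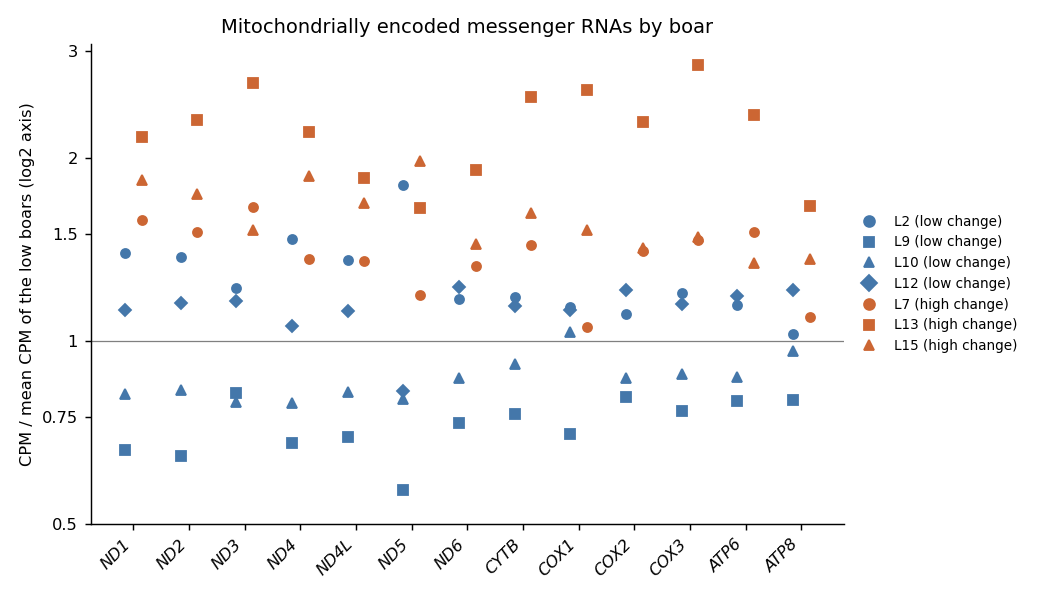
CPM of the 13 mitochondrially encoded messenger RNAs in each boar, divided by the mean CPM of the low change boars, on a log2 axis (low change boars in blue, high change boars in orange). L13 is the highest boar for all but ND5, where it is L15, and L9 is the lowest for all but ND3.

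Markers of cells outside the tubule were mostly higher in value, and of the cell type lists with at least 5 tested genes, stromal fibroblasts had the highest median. Of 17 tested stromal markers, 11 were higher at an unadjusted p under 0.05 and 0 lower (beside 9.5% and 10.3% over all genes), with a median of 0.86. Of the 17, 8 were higher without overlap and 2 passed the likelihood ratio test, where 7.34% and 0.476% of all genes did so. Without L13 the median was 0.61, with 6 higher at an unadjusted p under 0.05, beside 3.6% of all genes. PRRX1 (chr4:80427682-80502689), a homeobox factor of mesenchyme, had 6.34, 5.76, 4.88 and 6.68 CPM in L2, L9, L10 and L12 and 9.79, 16.1 and 9.95 CPM in L7, L13 and L15, a log2 fold change of 1.01 (SE 0.24, unadjusted p = 0.00147). NR2F2 (chr7:83076119-83090250), the nuclear receptor that marks interstitial progenitors, had 12.1, 10.9, 8.94 and 8.86 CPM in L2, L9, L10 and L12 and 19.6, 23.9 and 14.5 CPM in L7, L13 and L15, a log2 fold change of 0.92 (SE 0.22, unadjusted p = 0.0016). LUM, lumican, a collagen-binding proteoglycan, was at 12.1 to 33.4 CPM in the high and 7.03 to 12 CPM in the low boars, with L15 next to L2. Among the defining markers, decorin, DCN, was at 65.3 to 146 CPM in the high and 40.5 to 77.7 CPM in the low boars. PDGFRA, a growth factor receptor of mesenchyme, was at 6.86 to 9.9997 CPM in the high and 3.83 to 6.52 CPM in the low boars. COL1A2, a chain of type I collagen, was at 17 to 34.4 CPM in the high and 7.49 to 18.9 CPM in the low boars. The groups overlapped for DCN and COL1A2 through L2 and not for PDGFRA. PRRX1, NR2F2 and LUM are among the study's own calls on these libraries. The summed level of all 24 stromal markers in the files was 239 to 369 CPM in the high boars and 132 to 224 CPM in the low boars.

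Leydig cell markers were higher in value with more overlap. The median was 0.43 over 17 tested markers (0.54 without L13), and 1 was higher without overlap, beside 7.34% of all genes. At an unadjusted p under 0.05, 5 were higher and 0 lower, where 9.5% of all genes were higher and 10.3% lower. Without L13 there were 3 higher and 0 lower, beside 3.6% and 4.43% of all genes. SULT2A1, a sulfotransferase, and HSD17B3, which makes testosterone, had log2 fold changes of 0.79 (SE 0.33) and 0.57 (SE 0.24). Without L13 these were 0.85 for SULT2A1 and 0.21 for HSD17B3. FDX1, which passes electrons to steroid-making cytochromes, was at 94.1 to 126 CPM in the high and 62.1 to 84.6 CPM in the low boars. STAR, which brings cholesterol into mitochondria, had 554, 98.6, 96.4 and 354 CPM in L2, L9, L10 and L12 and 581, 427 and 359 CPM in L7, L13 and L15, with L2 and L12 near the high boars. CYP17A1, of androgen synthesis, had 1270.3, 552, 384 and 1411 CPM in L2, L9, L10 and L12 and 1652, 711 and 1654 CPM in L7, L13 and L15. INSL3, a peptide hormone of Leydig cells, was at 35 to 124 CPM in the high and 31.6 to 99.7 CPM in the low boars. For each of STAR, CYP17A1 and INSL3, the low boars L9 and L10 lay below every high boar and L2 lay within the range of the high boars. In the cholesterol synthesis list 3 of 19 genes were higher and 0 lower, MSMO1, SC5D and IDI1, all without overlap. MSMO1, a methyl sterol oxidase, had 97.9, 53.4, 45.1 and 96.2 CPM in L2, L9, L10 and L12 and 146, 155 and 158 CPM in L7, L13 and L15, so its high boars lay close together and its low boars did not. SC5D, a sterol desaturase, was at 51.9 to 66.9 CPM in the high and 24 to 43.5 CPM in the low boars.

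The Sertoli cell list was highest in L13. Its median was 0.29 over 18 markers with 5 higher at an unadjusted p under 0.05, and 0.00 with 1 without L13. The shares of all genes higher at that p were 9.5% with L13 and 3.6% without it. Relative to the low boars the level of the Sertoli list was 0.10 in L7, 0.83 in L13 and 0.02 in L15, against -0.06 to 0.16 in the low boars. CLDN11, a claudin of the blood-testis barrier, had 123, 108, 127 and 104 CPM in L2, L9, L10 and L12 and 151, 313 and 113 CPM in L7, L13 and L15. FSHR, the FSH receptor, had 28.5, 28.3, 27.6 and 19 CPM in L2, L9, L10 and L12 and 28.1, 63.8 and 23.8 CPM in L7, L13 and L15. In both genes L13 was the highest boar and L15 lay within the range of the low boars. DEFB119, a beta-defensin, was at 73.5 to 135 CPM in the high and 54.1 to 61.7 CPM in the low boars, higher in all 3 high boars.

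Contractile and vessel markers had medians nearer to 0 than those of stromal and Leydig cells. For peritubular and vascular smooth muscle the median was 0.10, with 4 of 15 higher and 1 lower. At an unadjusted p under 0.05, 9.5% of all genes were higher and 10.3% lower. Without L13 the smooth muscle median was -0.00, with 2 higher and 1 lower, beside 3.6% and 4.43% of all genes. TPM1, a tropomyosin, and CALD1, caldesmon, had log2 fold changes of 0.70 (SE 0.23) and 0.92 (SE 0.34), which were 0.30 and 0.50 without L13. The defining markers ACTA2, MYH11 and TAGLN had log2 fold changes of 0.10 (SE 0.29), 0.11 (SE 0.28) and 0.03 (SE 0.20), and for ACTA2, MYH11 and TAGLN alike L2 was the highest of the 7 boars. The pericyte regulator RGS5 was at 44.9 to 54.6 CPM in the high and 14.3 to 43.7 CPM in the low boars, where the top low boar was L2. For endothelial cells 3 of 15 were higher and 1 lower (median 0.26), and without L13 there were 2 higher and 0 lower (median 0.22). KDR, a VEGF receptor, was at 11.5 to 19 CPM in the high and 6.96 to 12 CPM in the low boars. TEK, the angiopoietin receptor, was at 4.83 to 8.09 CPM in the high and 2.97 to 4.62 CPM in the low boars. FLT4, a VEGF receptor of lymphatic vessels, went the other way, at 1.03 to 1.82 CPM in the high and 1.73 to 3.69 CPM in the low boars, a log2 fold change of -0.95 (SE 0.37, unadjusted p = 0.0282). The defining markers PECAM1 and CDH5 had log2 fold changes of 0.22 (SE 0.25) and 0.26 (SE 0.35). In the macrophage list 0 of 12 reached an unadjusted p under 0.05, VSIG4 and STAB1 had log2 fold changes of 0.57 (SE 0.28) and -0.65 (SE 0.34), and CD163, a scavenger receptor, was at 2.01 to 9.39 CPM in the high and 2.49 to 3.81 CPM in the low boars, with L13 the highest.

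Mast cells were represented by few reads. The summed level of the 7 mast cell markers in the files was 6.07 to 10.5 CPM in the high boars and 3.07 to 4.8 CPM in the low boars. Of the 2 that were tested, MS4A2 did not overlap. HDC, which makes histamine, overlapped at 1.71 to 2.73 CPM in the high and 0.908 to 2.75 CPM in the low boars. Other cell types that the tissue could hold were also summed over the markers in the files. The sums were 57.5 to 72.2 CPM in the high and 53 to 71.1 CPM in the low boars for rete and epididymal duct epithelium, 5.61 to 12.5 and 4.62 to 25.8 CPM for red blood cells, 1.22 to 6.92 and 4.25 to 7.83 CPM for skeletal muscle, and 14.3 to 21.4 and 14.4 to 19.6 CPM for B and plasma cells. For fat cells they were 71.3 to 103 and 78.3 to 102 CPM. For T and natural killer cells the sums were 73.5 to 95.4 and 99.8 to 128 CPM, lower without overlap, and most of that sum was CD247 at 45.5 to 77.8 CPM in the high and 81.5 to 110.2 CPM in the low boars. GZMA, a granule protease of killer cells, was in contrast higher, at 5.33 to 10.1 CPM in the high and 2.41 to 4.35 CPM in the low boars, and of the marker lists none had a defining marker in the files at 0 reads in all 7 libraries.

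Several gene groups of membranes, matrix and immune response were also higher in value. In the interferon and class I antigen presentation list 9 of 22 were higher and 0 lower at an unadjusted p under 0.05, with a median of 0.61 (0.45 without L13) and 3 without overlap. Over all genes 9.5% were higher and 10.3% lower at that p, and 7.34% were higher without overlap. Without L13 the list had 5 higher and 0 lower, beside 3.6% and 4.43% of all genes. IFI44, an interferon-induced gene, was at 6.93 to 15.8 CPM in the high and 2.18 to 5.91 CPM in the low boars. IFI30, a lysosomal thiol reductase for antigens, was at 1.84 to 2.47 CPM in the high and 0.629 to 1.37 CPM in the low boars, a low level in all boars. For integrins and adhesion receptors 6 of 22 were higher and 0 lower, and without L13 there were 3 higher and 0 lower. CDH1, E-cadherin, had a log2 fold change of 0.53 (SE 0.21). ITGAV, the integrin alpha chain that binds vitronectin and activates TGF-beta, had 79.9, 45.5, 45.5 and 55.8 CPM in L2, L9, L10 and L12 and 100.4, 155 and 82.7 CPM in L7, L13 and L15, and the lowest high boar, L15, lay just above L2. ITGB1, its partner, was at 171 to 246 CPM in the high and 142 to 169.9 CPM in the low boars. In the collagen and basement membrane list 7 of 33 were higher and 0 lower, though its median was 0.14, and without L13 there were 3 higher and 0 lower. Beside P3H2 these included PLOD2, a lysyl hydroxylase of collagen, at 21.4 to 45.2 CPM in the high and 12.1 to 16 CPM in the low boars. COL3A1, the chain of type III collagen, was at 16.1 to 30.9 CPM in the high and 8.33 to 15.9 CPM in the low boars.

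For WNT ligands, receptors and targets 6 of 20 were higher and 0 lower (median 0.36, 0.10 without L13). Without L13 there were 4 higher and 1 lower. Beside WNT5A these included LGR4, the receptor for R-spondins, at 50.1 to 91.7 CPM in the high and 33.5 to 38.4 CPM in the low boars. FZD4, a frizzled receptor, was at 22 to 32.3 CPM in the high and 10.4 to 21.5 CPM in the low boars, with L2 next to L13. In the lysosome list 11 of 35 were higher and 4 lower, with a median of 0.38. Over all genes 9.5% were higher and 10.3% lower, so the share of lower genes was near that background. Without L13 the median was 0.28, with 8 higher and 1 lower. GLA, the galactosidase that breaks down globosides, was at 8.08 to 11.6 CPM in the high and 4.1 to 6.49 CPM in the low boars. By contrast, the mannosidase MAN2B2 was lower, at 1.31 to 2.43 CPM in the high and 4.29 to 5.55 CPM in the low boars, a log2 fold change of -1.33 (SE 0.28, unadjusted p = 0.00078). Among the genes of the groups in this and the preceding paragraph, WNT5A, LGR4, P3H2, PLOD2, ITGAV, IFI30, ARSK and MAN2B2 are among the study's calls on these libraries, as are CDC20, CRAT, MSMO1, HSPE1 and RPS4X of other lists, so their lists are not independent evidence of a direction. In the lysosome list the high boars' mean levels of 0.24 to 0.47 lay within the low boars' range, which reached 0.53 in L2.

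**Figure D4:**
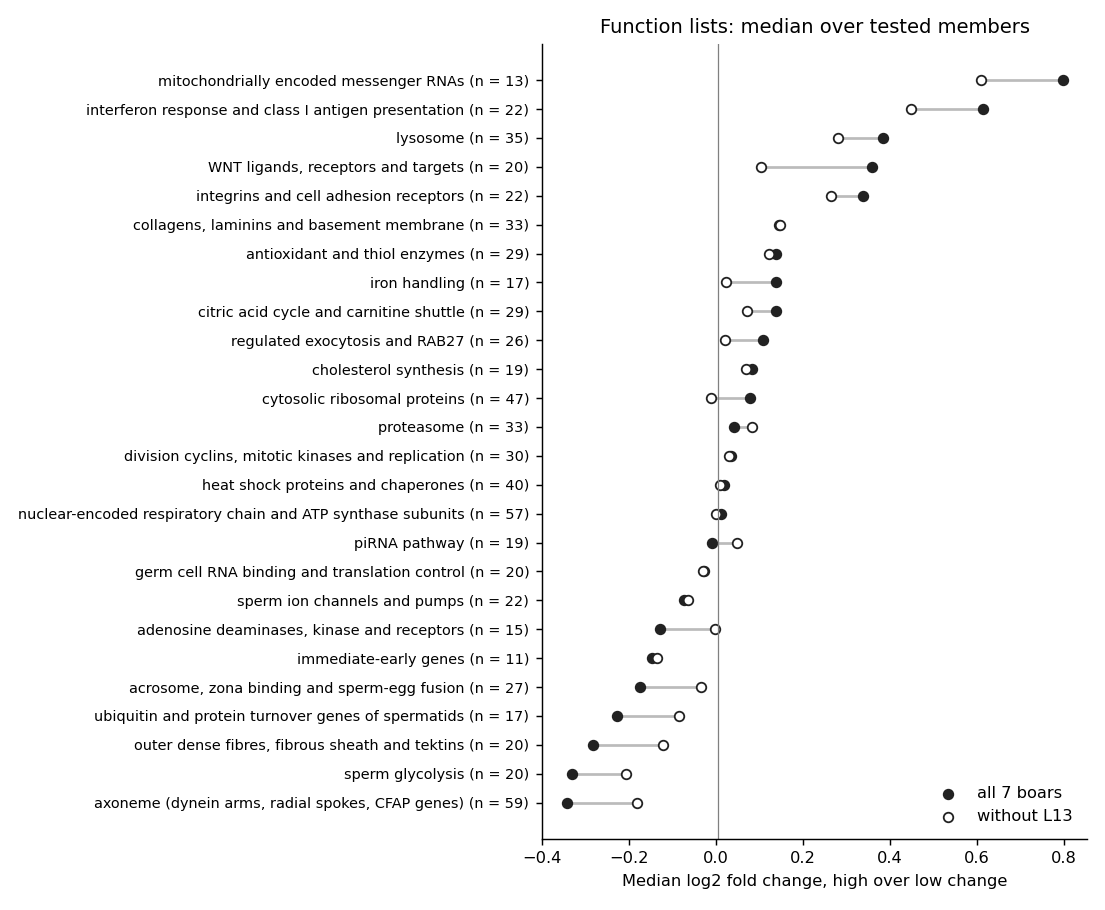
Median log2 fold change, high over low change, over the tested members of each function list (n in brackets), with all 7 boars as filled points and without L13 as open points, and a vertical line at the median over all tested genes. Mitochondrially encoded messenger RNAs lie highest at 0.80 and axoneme genes lowest at -0.34, next to sperm glycolysis at -0.33, and without L13 sperm glycolysis lies lowest at -0.21, with axoneme genes at -0.18.

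Most other housekeeping and germ cell groups held both higher and lower genes. Of 47 cytosolic ribosomal proteins, 8 were higher and 6 lower. RPS4X, on the X chromosome, had 300.1, 243, 204 and 236 CPM in L2, L9, L10 and L12 and 446, 528 and 337 CPM in L7, L13 and L15, above every low boar. RPL7A, lower, was at 186 to 252 CPM in the high and 287 to 384 CPM in the low boars. Ribosomal protein genes have many processed copies, so reads can be split among them. The proteasome list held 5 higher and 3 lower of 33, the heat shock and chaperone list 5 and 7 of 40, and the antioxidant list 5 and 3 of 29. HSPE1, of the mitochondrial chaperonin, was at 62.4 to 125 CPM in the high and 40.03 to 58.3 CPM in the low boars. HSPD1, its partner, overlapped at 115.96 to 216 CPM in the high and 82.4 to 122 CPM in the low boars. NFE2L2, the master regulator of antioxidant genes, was at 69.1 to 102 CPM in the high and 48.5 to 63.9 CPM in the low boars. Among 22 sperm ion channels and pumps, 3 were lower and 1 higher. CATSPERG, an auxiliary subunit of the sperm calcium channel that hyperactivation needs, had 279, 237, 269 and 313 CPM in L2, L9, L10 and L12 and 201, 128 and 219 CPM in L7, L13 and L15, a log2 fold change of -0.59 (SE 0.19, unadjusted p = 0.00987). Of the piRNA list 2 of 19 were higher and 0 lower. For germ cell RNA binding the counts were 2 and 1 of 20, for division cyclins and kinases 1 and 2 of 30, for iron handling 3 and 1 of 17, for regulated exocytosis 2 and 2 of 26, for adenosine genes 1 and 2 of 15, and for immediate-early genes 1 and 0 of 11. Over all genes 9.5% were higher and 10.3% lower, and without L13 the counts were 3 higher and 3 lower for ribosomal proteins and 4 higher and 3 lower for heat shock proteins. Of the members of smallest p in these lists, UNC13D, a priming factor for vesicle fusion, had a log2 fold change of -1.23 (SE 0.32, unadjusted p = 0.00325). FOSL2, of the AP-1 family, had one of 1.51 (SE 0.45, unadjusted p = 0.00688), and RPL6 one of 0.70 (SE 0.21). The iron genes HMOX2, a haem oxygenase, and HEPH, a ferroxidase, had -0.79 (SE 0.28) and 1.32 (SE 0.54). The piRNA genes HENMT1, which methylates piRNA ends, and PLD6 had 0.43 (SE 0.17) and -0.95 (SE 0.43). These members lay on both sides of 0.

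Genes were also placed on chromosomes by their symbol in the RefSeq annotation of Sscrofa11.1, which gave a position to 10143 tested genes. This comparison was chosen after the values were seen. As background, most genes of the X chromosome are silenced while a spermatocyte is in meiotic prophase, and many stay low afterwards. On the X chromosome 26.1% of 314 genes were higher at an unadjusted p under 0.05 and 4.46% were lower, where all placed genes gave 9.86% and 10.7%, and single autosomes gave 3.34% to 14.7% higher. The median log2 fold change of X-linked genes was 0.35, against -0.16 to 0.13 on the autosomes. Relative to the low boars, the mean over X-linked genes was 0.20 in L7, 0.56 in L13 and 0.05 in L15, and 0.13 in the low boar L2, so the groups overlapped. Without L13 the median was 0.13 and 6.69% of X-linked genes were higher, beside 3.6% over all genes. That share was below those of chromosomes 8 and 15 without L13, at 7.07% and 6.99%, so X had the largest share of higher genes with L13 and not without it. The X-linked genes passed by the likelihood ratio test were GRIA3, RPS4X, RNF128, LAMP2 and SAT1, all higher.

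LAMP2, a lysosomal membrane protein, had 102, 61.6, 54.6 and 62.3 CPM in L2, L9, L10 and L12 and 125, 199 and 102 CPM in L7, L13 and L15, with L2 next to L15. SAT1, which acetylates polyamines, was at 204 to 309.8 CPM in the high and 107 to 218 CPM in the low boars. Among the autosomes, chromosomes 2, 6, 12 and 3 held the largest shares of lower genes, 20.2%, 16.7%, 16.3% and 15.6%. Without L13 these shares were 6.2%, 6.55%, 6.68% and 7.67%, beside 4.43% of all genes, and chromosome 3 had the largest. The median span of tested genes on chromosomes 2, 6, 12 and 3, from start to end in the annotation, was 21878 to 30472 bp. On chromosomes 8 and 15, with the largest autosomal shares of higher genes, it was 63182 and 54151 bp. Among the 2047 genes of shortest span, 18.9% were lower and 7.08% higher, and among the 2045 of longest span, 5.18% were lower and 10.3% higher. The part of gene span or base composition in these shares was not tested.

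**Figure D5:**
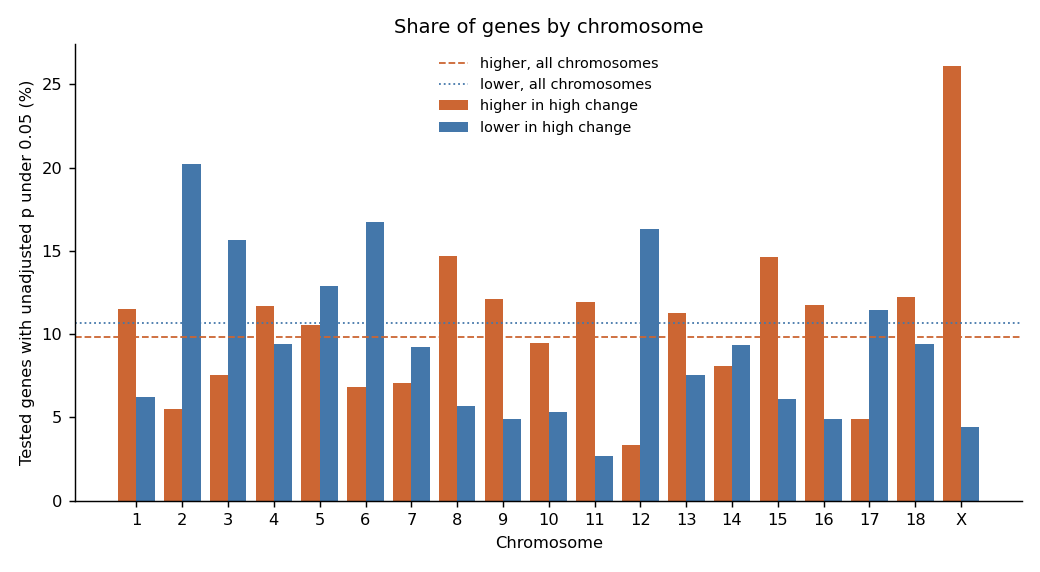
Percent of tested genes on each chromosome with an unadjusted p under 0.05 in the quasi-likelihood test, higher (orange bars) or lower (blue bars) in the high change boars, with the shares over all placed genes as a dashed line (9.86%) and a dotted line (10.7%). The X chromosome has the tallest orange bar, at 26.1%, and chromosome 2 the tallest blue bar, at 20.2%.

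To see where the change over storage differs from hyperactivity at the outset, the difference between the high and low change boars was set against that between the 3 high and 3 low boars labelled for day 0 alone, in a single fit in which L2 and L7 counted only in the change groups. In this test of the difference 0 of 12799 genes reached an adjusted p under 0.05 by the same edgeR method (0%), 1369 had an unadjusted p under 0.05 (10.7%), and in the likelihood ratio test 9.89% did and 4 passed the adjusted threshold (0.0313%), TMEM184B, LPO, MGP and USP31. MGP, a matrix protein that keeps soft tissue from calcifying, had a log2 fold change of 1.07 for the change and -1.41 at day 0, a difference of 2.49 (SE 0.50, adjusted p = 0.459 in edgeR). LPO, lactoperoxidase, had 1.36 and -2.45. USP31 had -0.81 and 0.69.

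Set side by side, the lists gave different pictures in these separate sets of boars. The stromal median was 0.86 for the change and -0.55 at day 0, and 9 of its 17 genes had an unadjusted p under 0.05 for the difference, beside 10.7% of all genes. The collagen and basement membrane median was 0.16 for the change and -0.55 at day 0 (13 of 32), and that of ribosomal proteins 0.08 for the change and -0.55 at day 0 (18 of 47). For peritubular and vascular smooth muscle it was 0.10 for the change and -1.19 at day 0 (5 of 15). Elongating spermatid markers gave -0.51 for the change and -0.27 at day 0, with 3 of 20 genes at that p, sperm glycolysis -0.33 for the change and -0.45 at day 0 (3 of 20), and mitochondrially encoded messenger RNAs 0.80 for the change and 0.41 at day 0 (0 of 13). So the stromal, matrix and smooth muscle medians had opposite signs in the comparisons with all boars, although without single boars the change median ran from -0.0279 to 0.22 for collagen and basement membrane and from -0.0258 to 0.36 for smooth muscle, on either side of 0. Those of elongating spermatids, glycolysis and mitochondrial messengers had the same sign. Other sperm lists differed: for outer dense fibres and fibrous sheath the median was -0.28 for the change and 0.04 at day 0. For the acrosome it was -0.18 for the change and 0.17 at day 0, and for spermatid protein turnover -0.23 and 0.08. The axoneme median kept its sign, at -0.34 for the change and -0.04 at day 0. No list was tested as a whole. Some genes, such as CDH1 and PLK1, stand in more than a single list, so the lists are not independent of each other.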

How the data were processed

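RNA was sequenced from 1 testis sample per boar. The authors trimmed reads with Trimmomatic 0.36, aligned them with STAR to Sscrofa11.1 and deposited raw counts per Ensembl gene from HTSeq, 1 table per library, and their own test was the likelihood ratio test of edgeR 3.12.1. Each deposited table held 25880 genes, and the 5 tally lines of HTSeq were removed, of which reads in no gene were 24.3% to 29.7% of the library and ambiguous reads 0.81% to 0.90%. Depth is the total count over genes, and it sets the counting error of a gene of few reads, such as MS4A2.

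Groups followed the labels. Genes that reached 1 CPM in 4 or more of the 7 libraries were tested, 12824 of 21019 with any count, scaled by the trimmed mean of M-values, with the quasi-likelihood test of edgeR 4.0.16 in R 4.3.3 and Benjamini-Hochberg adjustment. The SE is the log2 fold change divided by the square root of F. Levels on the log2 scale used a prior count of 2. The likelihood ratio test, DESeq2 1.42.0, limma-voom (limma 3.58.1), other scalings and filters, and fits without single boars were alternatives. The difference from day 0 was fitted on all 13 Landrace libraries (12799 genes), and the Duroc libraries were not used here. No 2 libraries of a group were duplicates, with Pearson's r of log2 CPM from 0.958 to 0.986. The p-values measure the spread between boars, each with 1 library. Identifiers were named from a symbol table (10805 tested genes) or the study's tables (152), and positions were matched by symbol.

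On simulated counts for these 12824 genes and this comparison, the quasi-likelihood test called 100 of 100 genes changed by 2 on the log2 scale and 100 of 100 changed by 3, beside 12 unchanged genes. No smaller change was simulated, and the observed log2 fold changes ran from -2.13 to 2.08. The power to call changes below 2 was therefore not tested. The genes named are the 12 of smallest p with a symbol, 6 genes from each end of the log2 fold changes for an unadjusted p under 0.05 and no overlap, the 3 members of smallest p in each list and the defining markers, not all of which are printed. Others named were chosen after their values were seen. The members, lists and tests were chosen with earlier results of these data known. Fold changes and p-values that the authors computed were not used. Results of some list members are not reported here.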

Additional observations from a re-analysis of the deposited data

Results flagged for a closer look

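In groups of 4 boars, a value was picked out when 1 boar lay far from the other 3 relative to the range of the group. Of 206 sets of values of the low change group examined, 21 met this, where chance gives about 1 in 20, or 10.3. The high change group has 3 boars and was not examined.

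L2 was the boar apart in 11 of them, always on the high side. For vessel and contractile genes, RGS5 was at 43.7 CPM in L2 (14.3 to 17 in the other low boars), CALD1 at 62.7 CPM (27.3 to 29.1) and CDH5 at 6.87 CPM (2.85 to 3.10). LUM was at 12 CPM (7.03 to 7.64) and HBB, a globin, at 18.1 CPM (0.848 to 2.31). CTSL, a lysosomal protease, was at 5.68 CPM (1.43 to 1.9), IFI30 at 1.37 CPM (0.629 to 0.677), FOSL2 at 10.1 CPM (2.8 to 3.96) and CATSPERD, of the sperm calcium channel, at 99.2 CPM (77.1 to 78.9). The mean level of a list, relative to the low boars, stood apart in L2 for Sertoli cells at 0.16 (-0.06 to -0.05) and for integrins and adhesion receptors at 0.13 (-0.05 to -0.03).

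L12 was the boar apart for DNLZ at 4.44 CPM (2.58 to 2.88), LYZL4 at 102 CPM (78.5 to 82.4), SPATA3 at 46.6 CPM (26.4 to 26.9) and the acrosome list at 0.0864 (-0.03 in the others), all farther from the high boars than the rest. It was the lowest low boar for PTPRC, a leukocyte phosphatase, at 2.36 CPM (3.52 to 3.64), RPL6 at 182 CPM (229.9 to 235) and FSHR at 19 CPM (27.6 to 28.5). L9 stood apart for UBQLNL at 501 CPM (564 to 576) and ODF1 at 2199 CPM (1808 to 1858), and L10 for the ribosomal protein list at -0.18 (0.04 to 0.07).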

How the results depend on the processing

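The count of genes with an adjusted p under 0.05 was 0 in edgeR's quasi-likelihood test with 2540 genes at an unadjusted p under 0.05, and it was 92 in the likelihood ratio test, 123 in DESeq2 and 0 in limma-voom. It was 1 with no filter beyond 1 count (ENSSSCG00000037477) and 2 without L2 and L7, the boars that also carry a day 0 label (ENSSSCG00000023332 and GRXCR1). Leaving out 1 boar at a time gave 0 to 1 (ENSSSCG00000023332 without L7, EXOSC9 without L10). At an unadjusted p under 0.05 these fits gave 1030 genes (without L13) to 3752 (without L15), with 1260 without L12, of which 462 to 1892 were higher and 568 to 1860 lower. The higher genes numbered 782 without L9, 766 without L10 and 672 without L12, and the lower genes 848 without L2 and 588 without L12. The difference from day 0 passed 0 genes, and 4 by the likelihood ratio test. The causes of these changes were not tested.

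Without L2 and L7 the list median was -0.10 for spermatogonia, 0.34 for peritubular and vascular smooth muscle, 0.55 for endothelial cells, -0.0451 for T and natural killer cells, -0.13 for the piRNA list, -0.0137 for division genes, 0.43 for integrins, 0.59 for WNT genes and -0.0515 for heat shock proteins. In the same fit it was -0.82 for elongating spermatids, 0.26 for collagen and basement membrane, 0.26 for iron handling and 0.16 for cholesterol synthesis. Not every list is given here. For duct epithelium it was -0.41 by limma-voom and 0.18 with a filter of 5 CPM, which gave -0.0310 for exocytosis and 0.0486 for adenosine genes. Over fits that leave out 1 boar the medians ran from -0.0838 to 0.0662 for spermatogonia, -0.0529 to 0.10 for meiotic prophase, -0.0258 to 0.36 for smooth muscle, -0.64 to -0.21 for T and natural killer cells, -0.44 to 0.0611 for duct epithelium, -0.0031 to 0.10 for division genes, 0.26 to 0.48 for integrins, 0.10 to 0.53 for WNT genes, 0.0102 to 0.20 for exocytosis and -0.14 to 0.0198 for adenosine genes. They ran from -0.76 to -0.28 for elongating spermatids, -0.54 to -0.18 for the axoneme, 0.61 to 1.02 for stromal fibroblasts and 0.61 to 1.001 for mitochondrially encoded messengers. The difference in the mitochondrial share of counts was 0.64 to 1.64 percentage points with 6 boars, for which the exact permutation test cannot reach p = 0.05. No paired analysis was possible because each boar carries its own number and is in 1 group.

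With 3 and 4 boars the smallest exact p is 0.0286, and the medians of elongating spermatid, Sertoli and X-linked genes were nearer to 0 without L13 than with it.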
